A study of Saccharomyces cerevisiae with 6 samples.

Results

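The genes described here encode the enzymes that make histidine, the aromatic amino acids, the branched-chain amino acids, threonine, serine, glutamate with its amides, and proline in the budding yeast Saccharomyces cerevisiae, together with their common activator Gcn4. They were chosen by name as 47 genes, and 46 of them have a probe set in the annotation of the array, of 5449 genes measured in all. TRP1 has no named probe set there and is not analysed here. Each of the 46 is represented by 1 probe set, and all 46 probe sets are of the kind designed for a single transcript. Arginine and lysine synthesis were left out of the list and appear only for comparison.

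Total RNA of 6 samples was hybridised to Affymetrix expression arrays, 3 of a wild type and 3 of the strain NGY051, in which pmr1Δ::kann replaces the gene of the Golgi calcium and manganese pump. The labels name the parent BY4147 in some fields and BY4741 in others, and give its genotype as MAT a with ura3Δ0, leu2Δ0, his3Δ0 and met15Δ0. Both groups grew to mid-log phase in rich liquid YPAD medium with 5 mM calcium chloride, so no sample without added calcium or in amino acid-poor medium entered the comparison. Whether the replicates were separate cultures, or the deletion strain more than a single clone, is not stated. Where the replicates were not separate cultures, the p-values describe technical spread alone. Where the deletion strain was a single clone, they do not cover the spread between clones.

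Yeast makes all of the amino acids and represses much of this synthesis when the medium supplies them, as rich medium does. When amino acids run short, uncharged tRNA activates the kinase Gcn2, general translation slows, and translation of the GCN4 mRNA rises through its upstream open reading frames. Gcn4 then activates genes of most of the pathways described here, while factors such as Leu3, Bas1, Aro80 and Cha4 add control of single branches. Glutamate and glutamine stand at the centre, because they donate the nitrogen of nearly every other amino acid.

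PMR1 itself served as the check of the labels. Its probe set (YGL167C) had levels of 11.81, 11.79 and 11.84 on the log2 scale in the wild-type arrays and 2.79, 3.45 and 3.16 in those of the deletion, below the array background of 4.18 to 4.31 that fission yeast probe sets give. The array medians lay between 10.34 and 10.39. Arrays of the same group correlated across probe sets at a Pearson's r of 0.997 to 0.999 and arrays of different groups at 0.988 to 0.990, and probe sets are no independent replicates. The amino acid genes were bright: 36 of 46 lay above the 75th percentile of all probe set levels and 19 above the 90th. Between arrays their median SD was 0.031 (wild type) and 0.028 (deletion), against 0.056 and 0.052 over all probe sets.

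Loss of PMR1 was accompanied by small changes in both directions. Of the 46 genes, 9 rose and 8 fell past an adjusted p of 0.05 by limma, and 29 did not pass. The rises were GDH1, GLN1, TRP5, ASN2, ARO8, LEU1, SER33, PRO2 and THR1, and the falls were SER3, HIS4, LEU9, HIS6, HOM3, TRP4, GLT1 and HIS1. The largest called rise was 1.28-fold (GDH1) and the largest called fall 1.35-fold (SER3), and 0 of 46 changed by 2-fold or more, against 1.16% of all probe sets. The share called was 37.0% against a background of 29.2% of all 5498 probe sets, with 19.6% higher against 17.5%, and 17.4% lower against 11.7%. The median log2 change was 0.02, and 0.01 over all probe sets, and the median size of a change was 0.10 in both. The values of the groups did not overlap for 32 of 46 genes, 69.6% against a background of 46.7%. Of these, 18 were higher (39.1% against 27.4%) and 14 lower (30.4% against 19.3%) in the deletion. Neither background was matched for level or spread, in which these genes differ from all probe sets.

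The balance of rises and falls depended on the scaling. With renewed quantile normalisation 6 genes rose and 10 fell, with cyclic loess 7 and 10, and with a common median 9 and 9. Neither direction is therefore read as the leading one. The calls of GDH1, GLN1, TRP5, SER3 and HIS4 held in all 16 alternative settings, and ARO8 lost its call in 1 of them (adjusted p = 0.0576), the test over the whole array with its fission yeast, unnamed and control probe sets. In that test 3 rose and 2 fell. Leaving out 1 array at a time gave 4 to 9 rises and 2 to 9 falls. The lowest counts came without deletion replicate 1 (4 and 2), followed by those without wild-type replicate 1 (5 and 3), deletion replicate 3 (5 and 3) and wild-type replicate 3 (6 and 3). As RMA sets the arrays to a common distribution, a shift of total RNA per cell cannot be seen. Wild-type replicate 2 was the highest wild-type array for 32 of the 46 genes and the lowest for 9, with a median offset of 0.031 from the mean of the others. In a bulk culture, a change in every cell and a larger one in a share of the cells cannot be told apart.

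**Figure D1:**
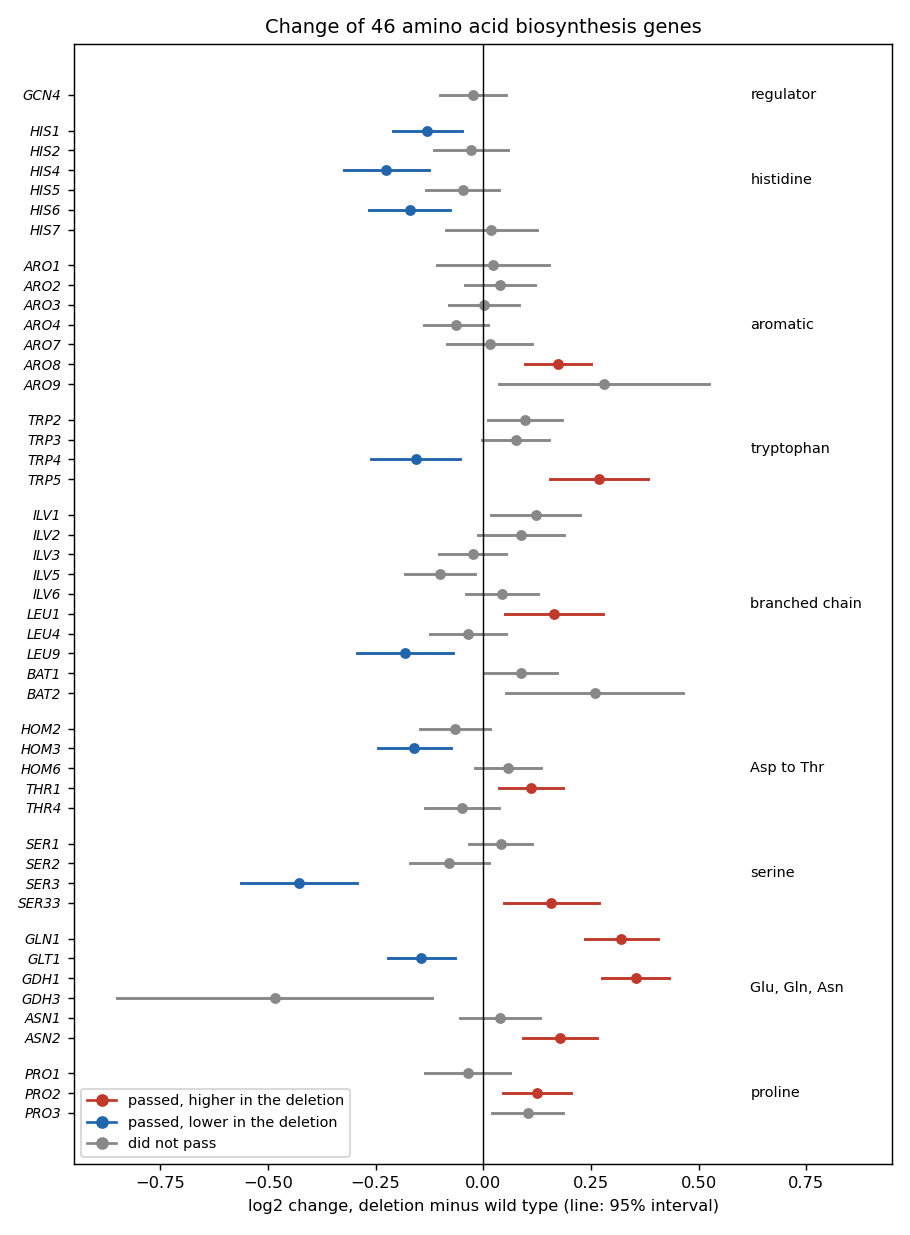
Log2 change (deletion minus wild type, 3 arrays each) of the 46 genes, grouped by pathway, with lines for the 95% interval and colour for the result of limma's test. Most intervals lie within 0.25 of 0, and GDH1, GLN1 and SER3 stand out from the other genes that passed.

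**Figure D2:**
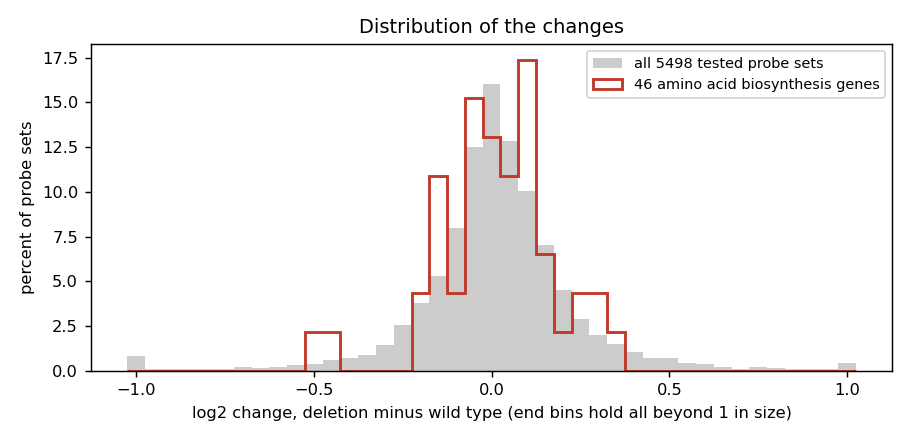
Percent of probe sets in each bin of log2 change, with values beyond 1 in size in the end bins, for all 5498 probe sets (grey) and for the 46 genes (red outline). The genes lie between -0.48 and 0.35, inside the range of all probe sets.

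GCN4 mRNA did not pass the test. GCN4 (YEL009C) had levels of 14.07, 14.08 and 14.09 in the wild type and of 14.05, 14.03 and 14.09 in the deletion. The groups overlapped, and the log2 change was -0.02 (SE 0.032, adjusted p = 0.624), with a 95% interval of -0.10 to 0.05. As Gcn4 is controlled mainly in translation, the mRNA level does not report the amount of the protein. The probe set lay at the 97.4th percentile of level, and the deposited values do not show whether it was near saturation. A list of 10 genes for the translational control of GCN4 includes the kinase GCN2 and its activators GCN1 and GCN20. The median log2 change of the 10 was 0.04. Of them 1 rose and 0 fell, where 17.5% of all probe sets rose and 11.7% fell. The 1 was GCD6, a subunit of the exchange factor eIF-2B, at 0.12 (SE 0.033, adjusted p = 0.0347), and its call ended when any 1 of the 6 arrays was left out (adjusted p = 0.0527 to 0.110) and with renewed quantile normalisation (adjusted p = 0.0587). Of 5 genes for the turnover or coactivation of Gcn4, CDC4, the ubiquitin ligase subunit that marks Gcn4 for degradation, rose by 0.22 (SE 0.033, adjusted p = 0.00341). MBF1, a coactivator that bridges Gcn4 and the TATA-binding protein, fell by 0.23 (SE 0.045, adjusted p = 0.00959). PCL5, the cyclin that targets Gcn4, did not pass (log2 change 0.10, adjusted p = 0.161). Of these 5 genes 1 rose, 1 fell and 3 did not pass, beside the 29.2% called of all probe sets.

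The largest rises that passed were in nitrogen assimilation. Yeast takes up ammonium into glutamate through the NADP-dependent glutamate dehydrogenases Gdh1 and Gdh3, adds a second ammonium to make glutamine through Gln1, and can regenerate glutamate from glutamine through the glutamate synthase Glt1. GDH1 (YOR375C) had levels of 13.60, 13.59 and 13.56 in the wild type and of 13.91, 13.93 and 13.96 in the deletion. GLN1 (YPR035W) had levels of 13.57, 13.62 and 13.61 against 13.92, 13.88 and 13.96. In both genes every deletion array lay above every wild-type array by several times the spread within a group. The rise of GDH1 was 0.35 in log2 (SE 0.033, adjusted p = 0.000463), or 1.28-fold, and that of GLN1 was 0.32 (SE 0.036, adjusted p = 0.00107), or 1.25-fold. GLT1 (YDL171C) moved the other way, from 11.81, 11.76 and 11.78 to 11.63, 11.65 and 11.65. It fell by 0.14 (SE 0.033, adjusted p = 0.0177), a call that ended when wild-type array 1 or 3, or deletion array 1, was left out (log2 change -0.15 to -0.13, adjusted p = 0.0511 to 0.0756).

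GDH3 (YAL062W), the paralog of GDH1 that is known for use on nonfermentable carbon sources, had the widest spread of the 46 genes. Its levels were 8.45, 9.11 and 8.61 in the wild type and 8.23, 8.26 and 8.21 in the deletion. No deletion array reached the lowest wild-type array, but wild-type replicate 2 lay 0.58 above the mean of its group's other two. The log2 change was -0.48 (SE 0.15, adjusted p = 0.055), which did not pass. Without wild-type replicate 2 it was -0.29 and passed (adjusted p = 0.0118), and without wild-type replicate 1 it was -0.62 and passed (adjusted p = 0.0254). Over all 16 alternatives its adjusted p ranged from 0.0118 to 0.137.

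The asparagine synthetases ASN1 and ASN2 transfer the amide of glutamine to aspartate. ASN2 (YGR124W) had levels of 13.33, 13.41 and 13.36 against 13.56, 13.52 and 13.55, so the groups were apart. It rose by 0.18 (SE 0.036, adjusted p = 0.0115), and the call ended without deletion replicate 1 (0.17, adjusted p = 0.0532). ASN1 (YPR145W) had levels of 13.69, 13.72 and 13.67 against 13.69, 13.71 and 13.79, which overlap (log2 change 0.04, adjusted p = 0.493).

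**Figure D3:**
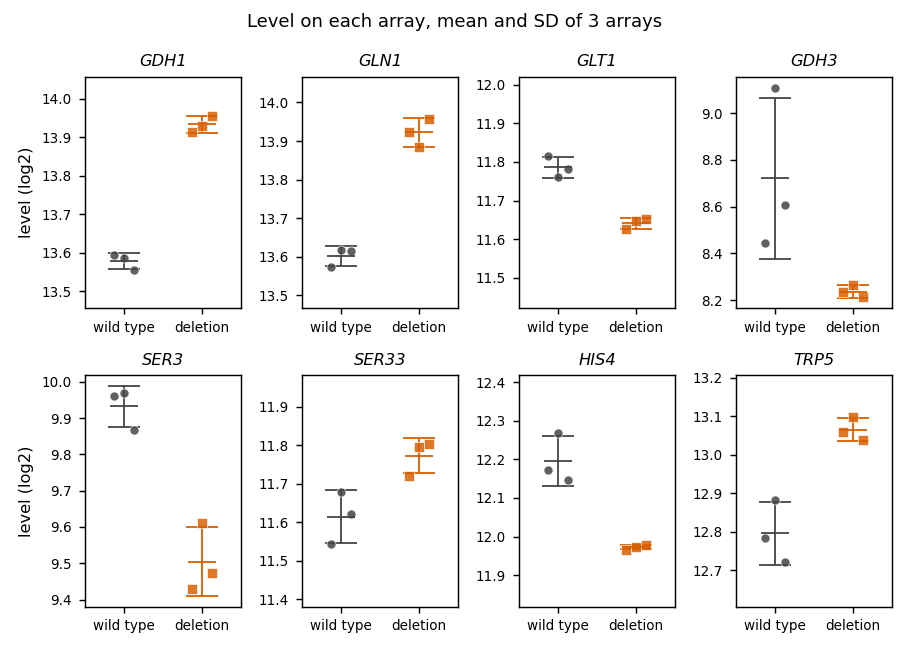
Log2 level on each array of 8 genes of nitrogen assimilation, serine, histidine and tryptophan synthesis, with the mean and SD of 3 arrays per group; each panel has its own axis, which does not start at 0. The groups are apart in all 8 panels, and wild-type replicate 2 of GDH3 (9.11) stands above the other two.

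In the serine pathway the isoenzymes of the first step changed in opposite directions. SER3 and SER33 both encode the phosphoglycerate dehydrogenase that diverts a glycolytic intermediate to serine. SER3 is known to be silenced in serine-rich medium by transcription of the noncoding RNA SRG1 across its promoter. SER3 (YER081W) had levels of 9.96, 9.97 and 9.87 in the wild type and of 9.43, 9.61 and 9.47 in the deletion. The groups were apart, and SER3 fell by 0.43 (SE 0.057, adjusted p = 0.00219), or 1.35-fold. SER33 (YIL074C) had levels of 11.54, 11.68 and 11.62 against 11.72, 11.80 and 11.80, and rose by 0.16 (SE 0.047, adjusted p = 0.0435). That call ended when any array but wild-type replicate 2 was left out (log2 change 0.12 to 0.18, adjusted p = 0.0636 to 0.127), and with renewed quantile normalisation or cyclic loess. The later enzymes did not pass: the transaminase SER1 had a log2 change of 0.04 (adjusted p = 0.361) and the phosphatase SER2 of -0.08 (adjusted p = 0.173).

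Genes around serine and glycine also moved in both directions. CHA1, the serine and threonine deaminase that degrades these amino acids, had levels of 13.02, 13.10 and 13.05 against 12.65, 12.66 and 12.52. It fell by 0.45 (SE 0.049, adjusted p = 0.000942), while CHA4, its activator, rose by 0.13 (SE 0.036, adjusted p = 0.0351). The call of CHA4 ended when any array but wild-type replicate 2 was left out (adjusted p = 0.0622 to 0.105), and with cyclic loess (adjusted p = 0.0638), the intensity trend (adjusted p = 0.0617) or the whole array (adjusted p = 0.148). Of the serine hydroxymethyltransferases, which interconvert serine and glycine, the mitochondrial SHM1 rose by 0.16 (SE 0.034, adjusted p = 0.013) and the cytosolic SHM2 fell by 0.23 (SE 0.056, adjusted p = 0.0226). The call of SHM1 ended without wild-type replicate 1 or deletion replicate 1 (adjusted p = 0.0504 to 0.0584), and that of SHM2 when any array but wild-type replicate 2 was left out (adjusted p = 0.0533 to 0.0763). Both calls also ended in the test over the whole array (adjusted p = 0.0784 for SHM1 and 0.0848 for SHM2). SHM1 and SHM2 were the 2 of 9 other enzymes and carriers of amino acid synthesis that passed, beside the 29.2% called of all probe sets. TYR1, PHA2, GLY1, AAT1, AAT2, ALT1 and OAC1 did not pass.

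The histidine genes HIS4, HIS6 and HIS1 fell. Histidine is built from ATP and a phosphorylated sugar in a long linear pathway. Of 6 measured genes 3 fell, 0 rose and 3 did not pass, where 11.7% of all probe sets fell and 17.5% rose. The median log2 change of the 6 was -0.09. HIS4 (YCL030C), a multifunctional enzyme of early and last steps, had levels of 12.17, 12.27 and 12.15 against 11.97, 11.97 and 11.98. It fell by 0.22 (SE 0.041, adjusted p = 0.00772), and the deletion arrays were closer to each other than the wild-type arrays. HIS6 (YIL020C), the isomerase of the pathway, went from 10.65, 10.61 and 10.70 to 10.48, 10.52 and 10.44, a fall of 0.17 (SE 0.04, adjusted p = 0.0197). HIS1 (YER055C), the transferase of the first step, went from 13.79, 13.75 and 13.77 to 13.64, 13.67 and 13.61, a fall of 0.13 (SE 0.034, adjusted p = 0.029). The groups were apart for all 3, but the calls of HIS6 and HIS1 ended when wild-type array 1 or 3, or deletion array 1 or 3, was left out (adjusted p = 0.0622 to 0.0692 for HIS6 and 0.0758 to 0.101 for HIS1). The phosphatase HIS2, the transaminase HIS5 and the cyclase HIS7 overlapped between groups, with log2 changes of -0.03, -0.05 and 0.02. HIS3, a deletion of both strains per the genotype in the labels, read 11.54 to 11.58 on all 6 arrays. This level, at the 75.3rd percentile, is at odds with a deletion that covers its probes. The tables used here do not place the probes inside or outside the deletion, so the conflict with the labels was not resolved.

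No gene of the common aromatic pathway passed. ARO3 and ARO4 encode the synthases of the first step, ARO1 a multifunctional enzyme, ARO2 the chorismate synthase and ARO7 the chorismate mutase that leads to phenylalanine and tyrosine. Their log2 changes lay between -0.06 (ARO4, adjusted p = 0.174) and 0.04 (ARO2, adjusted p = 0.442). Of these 5 genes 0 passed, beside the 29.2% called of all probe sets. ARO4 was lower on every deletion array. It passed in 1 of the 16 alternative settings, renewed quantile normalisation (log2 change -0.09, adjusted p = 0.0466). The 95% intervals of the 5 together ran from -0.14 (the lower end for ARO4) to 0.15 (the upper end for ARO1).

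The tryptophan branch was uneven. TRP5 (YGL026C), the tryptophan synthase of the last step, had levels of 12.78, 12.88 and 12.72 against 13.06, 13.10 and 13.04. It rose by 0.27 (SE 0.048, adjusted p = 0.00726). TRP4 (YDR354W), the transferase that acts on anthranilate, went from 11.24, 11.25 and 11.35 to 11.07, 11.13 and 11.15. Both genes had groups that did not overlap, in opposite directions. TRP4 fell by 0.16 (SE 0.044, adjusted p = 0.0355), a call that ended when any array but wild-type replicate 2 was left out (log2 change -0.18 to -0.12, adjusted p = 0.0600 to 0.122). TRP2 and TRP3, the subunits of anthranilate synthase, did not pass, with log2 changes of 0.10 (adjusted p = 0.0868) and 0.08 (adjusted p = 0.131).

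Among the transaminases at the end of the aromatic and branched-chain pathways, 1 of 4 passed, beside the 29.2% called of all probe sets. These enzymes also start the breakdown of the same amino acids to fusel alcohols, the Ehrlich pathway. ARO8 (YGL202W), an aromatic transaminase, had levels of 12.97, 13.01 and 13.01 against 13.19, 13.17 and 13.15, and rose by 0.17 (SE 0.032, adjusted p = 0.00808). ARO9 (YHR137W), its partner that is induced by aromatic amino acids through Aro80, had levels of 10.63, 10.33 and 10.73 against 10.85, 10.76 and 10.92. BAT2 (YJR148W), the cytosolic branched-chain transaminase, had levels of 11.90, 12.20 and 11.85 against 12.23, 12.24 and 12.26. In both ARO9 and BAT2 all deletion values were higher, and wild-type replicate 2 stood apart, by -0.35 for ARO9 and 0.32 for BAT2 from the mean of the other two. Neither passed: the log2 change of ARO9 was 0.28 (SE 0.1, adjusted p = 0.0828) and that of BAT2 was 0.26 (SE 0.087, adjusted p = 0.0636). Without wild-type replicate 2 BAT2 passed at 0.36 (adjusted p = 0.00104) and ARO9 was at 0.16 (adjusted p = 0.0918), while without wild-type replicate 3 ARO9 passed at 0.37 (adjusted p = 0.0467). Over all 16 alternatives the adjusted p ranged from 0.0244 to 0.201 for ARO9 and from 0.00104 to 0.171 for BAT2. BAT1 (YHR208W), the mitochondrial enzyme, had a log2 change of 0.09 (adjusted p = 0.106).

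The catabolic genes measured beside them showed larger changes. ARO10, the decarboxylase of the Ehrlich pathway, had levels of 9.27, 8.83 and 9.39 against 10.09, 10.07 and 10.16. It rose by 0.95 (SE 0.13, adjusted p = 0.00282), or 1.93-fold, more than any of the 46 synthesis genes. Wild-type replicate 2 stood apart by -0.50 from the mean of the other wild-type arrays. The call of ARO10 held in all 16 alternatives, with a log2 change of 0.78 to 1.06. ARO80, the activator of ARO9 and ARO10, went from 8.33, 8.63 and 8.60 to 8.91, 9.04 and 8.78, and rose by 0.39 (SE 0.097, adjusted p = 0.0242). The groups of both genes were apart, although the call of ARO80 ended without deletion replicates 1 or 2 (adjusted p = 0.0699 to 0.0703). GDH2, the NAD-dependent glutamate dehydrogenase that releases ammonium from glutamate, went from 9.92, 10.13 and 9.92 to 10.34, 10.39 and 10.17. It rose by 0.31 (SE 0.08, adjusted p = 0.0289), a call that ended when wild-type array 1 or 3, or deletion array 1 or 2, was left out (adjusted p = 0.0847 to 0.0920). The calls of ARO80 and GDH2 also ended in the test over the whole array (adjusted p = 0.0762 and 0.0905). All 3 catabolic genes on the list passed, ARO10 and GDH2 higher and CHA1 lower, beside the 29.2% called of all probe sets. The list is short and was chosen with earlier results of these data known, so its count is not read as a result. Of 5 factors of single branches, ARO80 and CHA4 rose, where 17.5% of all probe sets rose. LEU3, BAS1 and PHO2 did not pass.

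**Figure D4:**
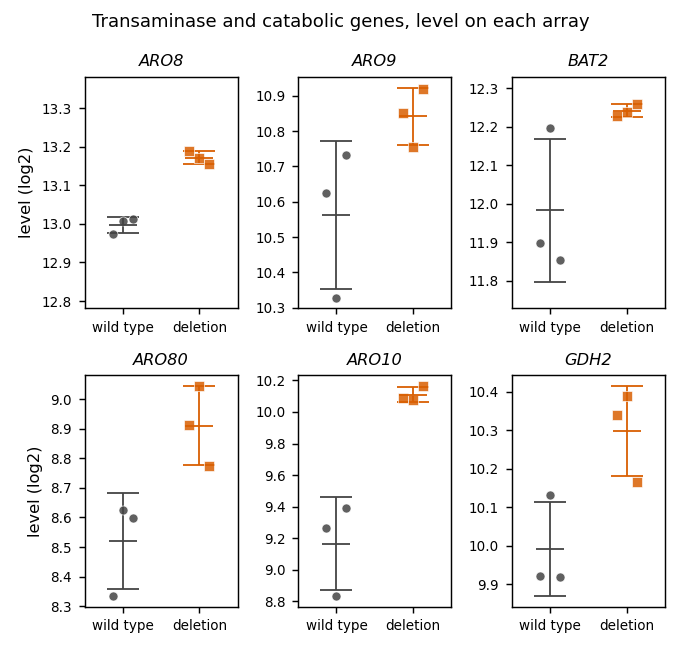
Log2 level on each array of 3 transaminase genes (ARO8, ARO9, BAT2), the activator ARO80 and the catabolic genes ARO10 and GDH2, with the mean and SD of 3 arrays per group; each panel has its own axis, which does not start at 0. All deletion arrays lie above all wild-type arrays in each panel, and the lowest wild-type value of ARO9 and of ARO10 is that of replicate 2.

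Of the branched-chain genes, LEU1 rose and LEU9 fell. Isoleucine and valine share the mitochondrial enzymes Ilv2 with its regulatory subunit Ilv6, Ilv5 and Ilv3, and the leucine branch starts with Leu4 or Leu9 and continues with Leu1. Of the 10 genes 1 rose, 1 fell and 8 did not pass, beside the 29.2% called of all probe sets. LEU1 (YGL009C), the isopropylmalate isomerase, had levels of 12.66, 12.69 and 12.64 against 12.81, 12.75 and 12.91, and rose by 0.16 (SE 0.048, adjusted p = 0.0416). LEU9 (YOR108W), an isopropylmalate synthase, had levels of 11.85, 11.74 and 11.85 against 11.59, 11.69 and 11.62, and fell by 0.18 (SE 0.047, adjusted p = 0.0285). Both are weak calls. That of LEU1 ended when any array but deletion replicate 2 was left out (log2 change 0.12 to 0.18, adjusted p = 0.0547 to 0.116) and in 5 other settings, all 3 other scalings among them. That of LEU9 ended when wild-type array 1 or 3, or deletion array 1 or 3, was left out (adjusted p = 0.0831 to 0.101). ILV5 (YLR355C), the reductoisomerase, was lower on every deletion array (14.11, 14.16 and 14.12 against 14.04, 14.01 and 14.04) and did not pass (log2 change -0.10, adjusted p = 0.0666). The threonine deaminase ILV1 had a log2 change of 0.12 (adjusted p = 0.0793), and ILV2, ILV3, ILV6 and LEU4 lay between -0.03 and 0.09. LEU2, also deleted in both strains per that genotype, read 5.58, 5.55 and 5.52 against 5.18, 5.41 and 5.38, above the array background. It fell by 0.23 (adjusted p = 0.0349), a call that ended when any array but deletion replicate 2 was left out (adjusted p = 0.0555 to 0.0994). The value of LEU2 also depended on the scaling, at -0.13 with renewed quantile normalisation (adjusted p = 0.352) and -0.18 with cyclic loess (adjusted p = 0.144). The call was lost as well with the intensity trend (adjusted p = 0.138) and over the whole array (adjusted p = 0.112).

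In the route from aspartate to threonine, the first committed enzyme fell and a later one rose. HOM3 (YER052C), the aspartate kinase that threonine inhibits, had levels of 12.51, 12.52 and 12.43 against 12.32, 12.33 and 12.33. It fell by 0.16 (SE 0.036, adjusted p = 0.0168), and the call ended when wild-type array 1, or deletion array 1 or 3, was left out (adjusted p = 0.0529 to 0.0657). THR1 (YHR025W), the homoserine kinase, had levels of 12.99, 13.02 and 12.99 against 13.10, 13.13 and 13.10. It rose by 0.11 (SE 0.032, adjusted p = 0.0389), the smallest change that passed among the 46, and its call ended when any array but wild-type replicate 2 was left out (adjusted p = 0.0777 to 0.120) and with renewed quantile normalisation. The dehydrogenases HOM2 and HOM6 and the threonine synthase THR4 did not pass, with log2 changes of -0.07, 0.06 and -0.05.

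Of 3 genes of proline synthesis from glutamate 1 rose, where 17.5% of all probe sets rose. PRO2 (YOR323C), the reductase of the middle step, had levels of 12.47, 12.50 and 12.46 against 12.61, 12.62 and 12.58. It rose by 0.12 (SE 0.033, adjusted p = 0.0312), a call that ended when any array but wild-type replicate 2 was left out (adjusted p = 0.0604 to 0.105). PRO3 (YER023W), the last enzyme, was higher on every deletion array and did not pass (log2 change 0.10, adjusted p = 0.0663). PRO1, the kinase of the first step, had a log2 change of -0.04 (adjusted p = 0.554).

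The list holds 6 pairs of isoenzymes, and for each pair the change of the within-array log2 ratio was tested by a two-sided exact permutation test over the 6 arrays. The smallest p that 3 arrays against 3 allow is 0.1, so no pair could pass. After adjustment over the 6 pairs the lowest p was 0.12. The ratio of SER3 over SER33 was -1.58, -1.71 and -1.75 in the wild type and -2.29, -2.18 and -2.33 in the deletion, a change of -0.59 (SE 0.067, exact p = 0.1). The ratio of GDH1 over GDH3 was 5.15, 4.48 and 4.95 against 5.68, 5.66 and 5.74, a change of 0.84 (SE 0.2, exact p = 0.1). In both pairs all arrays of a group lay on the same side of all arrays of the other, and without wild-type replicate 2 the change of GDH1 over GDH3 was 0.65. Only the change of such a ratio is read here, since the levels of different probe sets cannot be compared. Smaller changes without overlap were those of LEU4 over LEU9 (0.15, SE 0.059), ASN1 over ASN2 (-0.14, SE 0.033) and ARO3 over ARO4 (0.06, SE 0.021), each with an exact p of 0.1. BAT1 over BAT2 overlapped (-0.17, SE 0.087, exact p = 0.3), and without wild-type replicate 2 its change was -0.26.

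**Figure D5:**
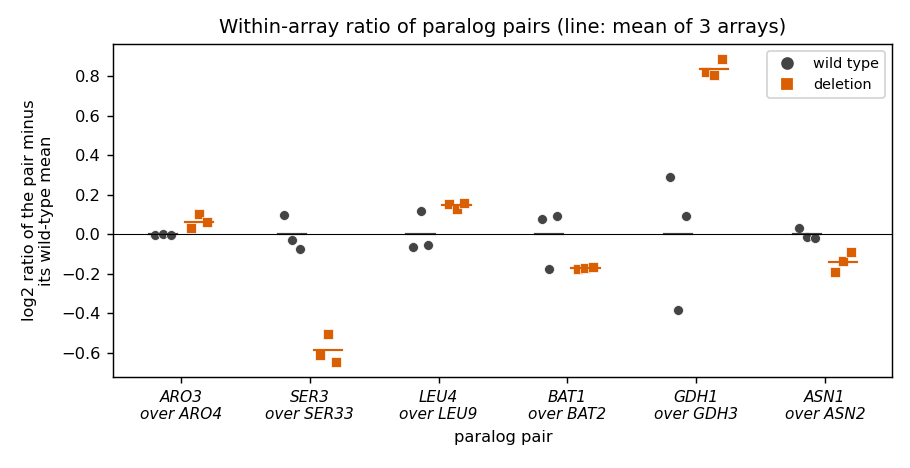
Log2 ratio of 6 isoenzyme pairs on each array, with the wild-type mean of the pair subtracted, for 3 wild-type (circles) and 3 deletion arrays (squares), with lines for the means. SER3 over SER33 changed by -0.59 and GDH1 over GDH3 by 0.84, and the wild-type arrays of the latter spread most.

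The 29 genes that did not pass bound what could have been missed. For 26 of them the 95% interval of the log2 change lay within 0.25 of 0, and the exceptions were GDH3, ARO9 and BAT2. That bound leaves room for changes of the size called here, which had a median of 0.17 and a minimum of 0.11. The intervals are not adjusted for the number of tests. Those of GDH3, ARO9, BAT2, ILV1, ILV5, BAT1, TRP2 and PRO3 exclude 0. Before adjustment, limma's p was below 0.05 for 25 of the 46 genes and for 2303 of all 5498 probe sets. Arginine and lysine synthesis, read from the same fit, are given beside them. Of 7 measured genes of arginine synthesis 5 fell, against 11.7% of all probe sets, and 0 rose, led by ARG1 (-1.63, adjusted p = 0.000185), ARG3 (-1.62, adjusted p = 0.000788) and ARG4 (-0.27, adjusted p = 0.00235). Of 8 genes of lysine synthesis 4 rose, against 17.5% of all probe sets, and 0 fell, led by LYS9 (0.48, adjusted p = 0.000185), LYS21 (0.28, adjusted p = 0.0124) and LYS1 (0.18, adjusted p = 0.0318). The call of LYS1 ended when any array but wild-type replicate 2 was left out (adjusted p = 0.0559 to 0.101). In the test over the whole array the calls of LYS21 and LYS1 ended (adjusted p = 0.0514 and 0.116). The difference between these pathways and the 46 genes was not tested.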

How the data were processed

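Expression was measured on 6 arrays, and groups came from the sample titles. The submitters' processing notes name GCOS, RMA and limma, without versions. The deposited table holds the authors' log2 values of 10928 probe sets, with 0 missing and 0 columns of other samples. RMA tends to understate large changes and changes of dim probe sets. Per the labels' protocols, 100 ng of total RNA entered the amplification. The array's genome build was not given in the sources used here. No coordinates or sequences are printed. In the probe annotation 7244 probe sets have 1 gene symbol, 1 has several, and 3470 unnamed and 213 control probe sets have none. The R64 gene table updated 12 symbols. Tested were 5498 S. cerevisiae probe sets of 5449 genes. A gene with several probe sets is read from the one with the highest mean.

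The groups were compared with limma 3.58.1 in R 4.3.3 (lmFit, eBayes, two-sided, no covariates), with Benjamini-Hochberg adjustment over the 5498 probe sets and a threshold of 0.05. The array background is the 95th percentile of the fission yeast probe sets on each array. Precision rests on the number of arrays, with a median SE (log2) of 0.036 for the 46 genes and 0.0477 over everything tested. The fit was tested on simulated data.

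Genes, companion lists, isoenzyme pairs and settings were chosen with earlier results of these data known. By rule, the text names all listed genes, HIS3 and LEU2, and up to 3 genes of each companion list, those that passed with the largest change. Companion genes named as not passing were added after their values were seen. ARG5,6 and promoter motifs were not analysed here. Alternatives were limma's intensity trend with robust priors, 3 other scalings, removal of dim probe sets, the whole array in the test, removal of probe sets with an _s_at or _x_at ending, array weights, a replicate block, averaging the probe sets of a gene, and leaving out each array. Plots were made with Python 3.11.15 and matplotlib 3.10.9.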

Additional observations from a re-analysis of the deposited data

How the results depend on the processing

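Across 16 alternatives, 0 of the 17 called genes changed sign, and 5 kept their call in all. The other 12 lost it in 1 to 10 alternatives. Of 29 genes without a call, 10 passed in some alternative: GDH3, ARO9, BAT2, ILV5, ILV1, BAT1, PRO3, ARO4, HOM2 and TRP2. Another 6 of the 29 changed sign in some alternative, without a call. In the test over the whole array 3 genes rose and 2 fell. There both limma's variance estimate and the adjustment run over 10928 probe sets in place of 5498. Which of them ended the calls was not tested. With array weights 14 rose and 10 fell, and the cause was not tested. The median log2 change of the 46 genes was 0.0212, and it was -0.0015 with renewed quantile normalisation and -1e-04 with cyclic loess, which moved the median over all probe sets from 0.0095 to -0.0034 and -0.007. Over all probe sets, 963 were higher and 642 lower, 548 and 325 in the test over the whole array, and 1434 and 1087 with array weights. Leaving out 1 array at a time gave 4 to 9 rises and 2 to 9 falls, with fewer samples in each fit, and a median of 0.005 to 0.034. The isoenzyme changes kept their sign, at 0.0457 to 0.0823 (ARO3 over ARO4), -0.6275 to -0.536 (SER3 over SER33), 0.1142 to 0.2045 (LEU4 over LEU9), -0.2573 to -0.1236 (BAT1 over BAT2), 0.6472 to 0.9828 (GDH1 over GDH3) and -0.1636 to -0.1131 (ASN1 over ASN2). With the replicate block 7 genes rose and 5 fell. Of the companion genes, LEU2, GCD6 and CHA4 lost their calls under it (adjusted p = 0.0683, 0.0702 and 0.0757). The test over the whole array ended the calls of LEU2, GCD6, CHA4, ARO80, GDH2, SHM1, SHM2, LYS21 and LYS1 (adjusted p = 0.0514 to 0.159). Whether the numbers pair the arrays is not stated, and the values showed no sign of it. Same-numbered deviations correlated at -0.138, 0 and 0.081. Of the 3 wild-type arrays 0 correlated best with the deletion array of its own number. With 3 arrays per group such a check cannot show that the arrays were unpaired. No scanner files were used, so signal over background and saturation of the bright probe sets could not be examined.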
